A study of Mus musculus with 3 samples.

Results

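The genes described here make, load, recycle and break down the transmitter acetylcholine or form its nicotinic receptors. They are 9 of the 33353 genes in the count table: *Chat*, *Slc18a3*, *Slc5a7*, *Ache*, *Chrna3*, *Chrna5*, *Chrna7*, *Chrnb2* and *Chrnb4*. The rule that picks them uses symbols and no measured value, and all 9 were detected. The cells were the 2060 that the authors kept as neurons from the small intestine of 3 *Ednrb*-/- mice at postnatal day 14. There was 1 library of single-cell RNA-seq per mouse (354, 1050 and 656 cells in mice 1, 2 and 3). The mice are labelled Ednrb-KO on C57BL/6 and as a model of Hirschsprung disease, in which the distal bowel lacks ganglia. In the paper, the stock names of the *Ednrb* line and of the reporter line include another strain beside C57BL/6. Cells carried a tdTomato reporter switched on by Wnt1-Cre, which labels neural crest derivatives, and were sorted from the longitudinal muscle and myenteric plexus, a preparation that does not include the submucosal plexus. All 3 mice share the deletion, and no control mouse was analysed here, so nothing below compares genotypes. SDs and limma tests below are over mice, while binomial and Poisson intervals are over cells or UMIs and cover counting error only.

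Acetylcholine is the main excitatory transmitter of the gut. ChAT, encoded by *Chat*, joins choline to acetyl-CoA in the nerve ending, the vesicular transporter VAChT (*Slc18a3*) loads the product into vesicles, acetylcholinesterase (*Ache*) splits it after release and the transporter CHT1 (*Slc5a7*) takes the choline back up. Fast transmission between enteric neurons runs mostly through nicotinic receptors, pentameric channels in which the α3 subunit (*Chrna3*) pairs with β4 (*Chrnb4*) or β2 (*Chrnb2*), α5 (*Chrna5*) is an accessory subunit and α7 (*Chrna7*) can form channels alone.

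*Chat* lies on the minus strand of chromosome 14 at 32408203 to 32465989 (GENCODE M21 on GRCm38), and *Slc18a3* lies wholly inside it on the same strand, at 32462438 to 32464850. All 2413 bases of *Slc18a3*, a gene of 1 exon, fall inside *Chat*, and none of the 8 annotated *Chat* transcripts has an exon there. Reads of the mature transcripts can thus be told apart, but reads from unspliced *Chat* RNA could fall on *Slc18a3*. *Slc5a7* is on chromosome 17 at 54273590 to 54299034 (minus), *Ache* on chromosome 5 at 137287519 to 137294466 (plus), *Chrna7* on chromosome 7 at 63098692 to 63212569 (minus) and *Chrnb2* on chromosome 3 at 89746195 to 89764632 (minus). *Chrna5* (54980880 to 55007779, plus), *Chrna3* (55010111 to 55026562, minus) and *Chrnb4* (55028154 to 55048779, minus) are neighbours on chromosome 9. The 3′ ends of *Chrna5* and *Chrna3* point at each other across 2331 bases, and 1591 bases separate *Chrna3* from *Chrnb4*.

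The promoters of *Chat* and of both transporter genes are shown because the 3 genes are compared most closely below and because *Chat* and *Slc18a3* are read in the same direction from 1 locus. Each window runs from 250 bases before to 50 bases after the RefSeq start (GRCm38.p6), 5′ to 3′ on the strand of the gene, with capitals marking every match on either strand to GGGCGG (GC box), CCAAT or TATAAA. The windows are chr14:32465860-32466159 for *Chat*, chr14:32464801-32465100 for *Slc18a3* and chr17:54298985-54299284 for *Slc5a7*, all on the minus strand.
Chat: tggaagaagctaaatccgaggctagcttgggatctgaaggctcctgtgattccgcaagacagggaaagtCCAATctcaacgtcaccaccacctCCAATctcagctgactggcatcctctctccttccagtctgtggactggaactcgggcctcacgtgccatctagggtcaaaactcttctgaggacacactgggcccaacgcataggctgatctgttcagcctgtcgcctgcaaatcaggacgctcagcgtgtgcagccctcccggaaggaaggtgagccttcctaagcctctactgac
Slc18a3: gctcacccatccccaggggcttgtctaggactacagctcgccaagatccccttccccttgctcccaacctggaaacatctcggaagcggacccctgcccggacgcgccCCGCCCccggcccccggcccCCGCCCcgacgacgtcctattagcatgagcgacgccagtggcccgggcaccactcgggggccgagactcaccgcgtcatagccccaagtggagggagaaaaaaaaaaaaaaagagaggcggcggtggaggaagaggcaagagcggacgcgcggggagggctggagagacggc
Slc5a7: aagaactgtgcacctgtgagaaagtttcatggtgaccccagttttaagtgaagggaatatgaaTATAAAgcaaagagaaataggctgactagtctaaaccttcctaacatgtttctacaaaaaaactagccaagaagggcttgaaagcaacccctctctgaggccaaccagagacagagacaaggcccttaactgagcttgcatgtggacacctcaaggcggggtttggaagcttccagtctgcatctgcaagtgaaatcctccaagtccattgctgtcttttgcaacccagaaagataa

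The 3 windows shared none of these motifs. *Chat* held 2 matches to CCAAT, a motif found in 37.4% of 32851 promoters of this length, and none to the GC box. *Slc18a3* held 2 GC boxes (35.7% of promoters) and *Slc5a7* held 1 TATAAA (13.6%). GC content was 55.7%, 67.0% and 44.7% in that order. The cAMP response element TGACGTCA, found in 1.79% of all promoters, matched in none of the 10 windows of the 9 genes. A match describes letters and is not a binding site.

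Libraries differed in depth, and mouse 1 stood apart. Its cells had a median of 3734.5 UMIs, against 9599.5 and 9578.5 in mice 2 and 3, and its summed level of 10 smooth muscle markers was 87.7 UMIs per 10000, against at most 20.4 in the others. In mouse 1, 45 of the 354 cells carried at least 8 of the 10 smooth muscle markers and at most 4 of 10 neuronal markers, against 4 and 2 cells in mice 2 and 3; they are called muscle marker cells below. All 10 neuronal markers were detected in each mouse, at a mean of 63.8%, 80.7% and 82.2% of cells. Although the authors had removed non-neuronal cells, the 10 glial markers were all detected too and summed to 22.4, 30.4 and 23.4 UMIs per 10000. Only 2 barcodes occurred in more than 1 library.

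Shares below are over all 2060 cells, which include 184 with at most 4 of the 10 neuronal markers, 88 of them in mouse 1. Of the 2060 cells, 1310 (63.6%) had at least 1 UMI of *Chat*, *Slc18a3* or *Slc5a7*, but only 206 (10.0%) had all 3. *Chat* was detected in 5.65%, 18% and 26.1% of the cells of mice 1, 2 and 3 (mean 16.6% ± 10.3, SD, n = 3). *Slc18a3* was detected in 24.3%, 39.7% and 50.0% of cells (38.0% ± 12.9) and *Slc5a7* in 40.1%, 45.3% and 54.4% (46.6% ± 7.24). *Chat* was therefore seen in fewer cells than either transporter in every mouse, and 930 cells (45.1%) had a transporter without it. These are shares of cells in which a UMI was caught, and they follow depth as well as transcript length and capture: 63.2% of the *Chat*-positive cells held a single UMI. With each cell thinned to 3000 UMIs, which left 1882 of the cells, the means were 9.27% ± 4.51, 21.3% ± 4.60 and 31.3% ± 4.49 for the 3 genes.

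The esterase gene *Ache* was detected in 29.9%, 42.3% and 46.0% of cells (39.4% ± 8.42), or 25%, 19.2% and 23.7% after thinning, when mouse 1 was the highest. The receptor subunit *Chrna3* was detected in 29.4%, 61.0% and 61.3% of cells (50.5% ± 18.3) and its partner *Chrnb4* in 13.3%, 37.9% and 39.6% (30.3% ± 14.7). *Chrna7* was detected in 2.54%, 24.0% and 21.8% (16.1% ± 11.8), and thinning did not close the gap of mouse 1 to the others (1.81% against 8.34% and 11.1%). *Chrna5* was found in 10.5% ± 2.66 and *Chrnb2* in 6.60% ± 2.61 of cells, and 87.2% and 89.9% of their positive cells held 1 UMI. In all, 1460 cells (70.9%) had a nicotinic subunit of the list, and 319 (15.5%) had none of the 9 genes.

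**Figure D1:**
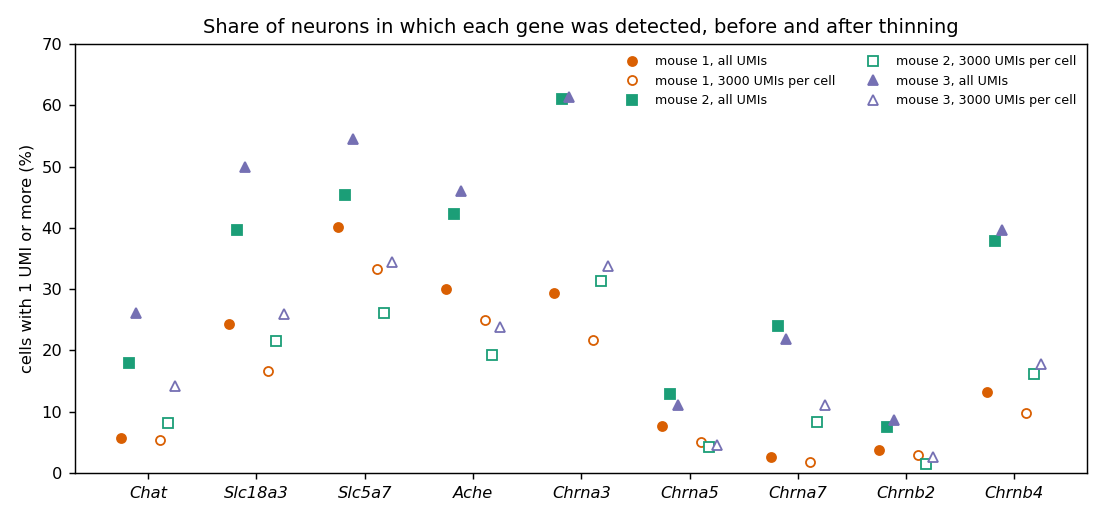
Share of the cells kept as neurons with at least 1 UMI of each gene (vertical axis, percent of cells), 1 symbol per mouse, with filled symbols for all UMIs and open symbols after thinning each cell to 3000 UMIs. Mouse 1 is lowest for all 9 genes before thinning, whereas after it mouse 1 is no longer lowest for *Slc5a7*, *Ache*, *Chrna5* and *Chrnb2*.

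The muscle marker cells give a rough background for the shares of mouse 1, since free RNA can add UMIs to cells that do not express a gene. Their rule was chosen after the data were seen and asks for few neuronal markers, which by itself favours low levels of neuronal genes. Mice 2 and 3 held only 4 and 2 such cells, too few for a background of those deeper libraries. Of the 51 such cells, *Slc18a3*, *Ache*, *Chrna7* and *Chrnb4* were each detected in 1 (1.96%, 95% exact binomial interval 0.0496% to 10.4%) and the other 5 genes in 0, which by a floor of 3 counts allows a UMI in up to 5.88% of such cells. In mouse 1, where 45 of them were, *Slc5a7* was in 0 of 45 muscle marker cells and 46.0% of the 309 other cells (40.3% to 51.7%), *Chrna3* in 0 and 33.7%, and *Ache* in 1 and 34.0%. The median depths were 3507 and 3807 UMIs. The muscle marker cells with *Chrna7* and with *Chrnb4* were not of mouse 1. The other cells of mouse 1 held *Chat* in 6.47%, *Chrna5* in 8.74%, *Chrna7* in 2.91% and *Chrnb2* in 4.21%. For these 4 genes the exact binomial intervals of the 309 cells of mouse 1 and of the 51 muscle marker cells of all mice overlapped. Overlap of intervals is not a test, and a difference was not tested.

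To compare neurons, cells were grouped by which of 3 genes they held: *Nos1*, the neuronal nitric oxide synthase, *Bnc2* and *Etv1*, transcription factor genes that mark branches of enteric neurons. There were 106 *Nos1*-only cells (12, 53 and 41 in mice 1 to 3), 265 *Bnc2*-only cells (26, 148 and 91) and 297 *Etv1*-only cells (50, 162 and 85). The 778 cells with *Nos1* and *Etv1* but no *Bnc2* (111, 432 and 235), the largest group, were added after the data were seen. Membership depends on depth, since a gene with 0 UMIs in a cell may still be expressed there. Median depth was 5963.5 UMIs in *Nos1*-only, 9140 in *Bnc2*-only, 7340 in *Etv1*-only and 9214.5 in *Nos1* and *Etv1* cells. None of the 3 genes was detected in 38.4%, 9.71% and 11.3% of the cells of mice 1 to 3. UMIs were summed per mouse and group and are given as UMIs per 10000, a level that does not rise with depth as a share of cells does. The groups were also unlike in other cells' markers. The glial markers summed to 33.1 to 39.8 UMIs per 10000 in *Etv1*-only cells, 21.5 to 36.1 in *Nos1*-only cells, 18.9 to 30.9 in cells with both and 13.4 to 23.7 in *Bnc2*-only cells. The neuronal markers summed to 61.3, 44.6 and 44.9 in the *Etv1*-only cells of mice 1 to 3, against 49.9, 75.3 and 73.9 in *Bnc2*-only and 75.9, 51.2 and 75.2 in *Nos1*-only cells, and 54 of 297 *Etv1*-only cells had at most 4 of the 10, against 10 of 265 *Bnc2*-only and 7 of 106 *Nos1*-only cells. Fits without the cells high in glial markers or low in neuronal markers are given below. Of the 26 *Bnc2*-only cells of mouse 1, 6 were muscle marker cells, and smooth muscle markers summed to 178 there, against 20.3 and 8.49 in mice 2 and 3.

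Of the groups named above, *Chat* was highest in *Bnc2*-only cells in mice 2 and 3, at 0.917 and 1.12 UMIs per 10000, but stood at 0.157 in mouse 1. In *Nos1*-only cells its level was 0.212, 0.154 and 0.346, in *Etv1*-only cells 0.102, 0.151 and 0.187, and in cells with *Nos1* and *Etv1* 0.0604, 0.0287 and 0.0739. In mice 2 and 3 the *Bnc2*-only level thus lay above every level of these other groups. In mouse 1 it rested on 2 UMIs (95% exact Poisson interval 0.0190 to 0.568) and lay among them. By cells, *Chat* was found in 131 of 265 *Bnc2*-only cells (49.4%), 15 of 106 *Nos1*-only cells (14.2%), 31 of 297 *Etv1*-only cells (10.4%) and 30 of 778 cells with both (3.86%). At 3000 UMIs per cell these pooled shares were 28.8%, 5.49%, 6.07% and 1.40%, and the means over mice were 22.7%, 7.04%, 5.59% and 1.69%. The order of *Nos1*-only and *Etv1*-only cells thus depended on whether mice were pooled.

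The vesicular transporter gene *Slc18a3* followed a similar order. Its level was 0.708, 2.61 and 2.82 UMIs per 10000 in *Bnc2*-only cells, 0.846, 0.745 and 1.48 in *Nos1*-only cells, 0.973, 0.576 and 0.797 in *Etv1*-only cells and 0.443, 0.413 and 0.660 in cells with *Nos1* and *Etv1*. Mice 2 and 3 again separated the *Bnc2*-only cells from these groups and mouse 1, with 9 UMIs, did not. The mean of *Slc18a3* over mice was 2.04 in *Bnc2*-only cells, 1.80 in cells with *Nos1* and *Bnc2* and 1.75 with *Bnc2* and *Etv1*. It was 1.11 in cells with all 3 genes and 1.25 with none. For *Chat* these means were 0.732, 0.520, 0.650, 0.212 and 0.437. High levels were thus not particular to *Bnc2*-only cells.

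The choline transporter gene *Slc5a7* was different in mouse 1. Its level in *Bnc2*-only cells was alike in all mice, at 2.36, 2.35 and 2.86 UMIs per 10000 (mean 2.52 ± 0.293, SD, n = 3). In *Etv1*-only cells it was 2.51 in mouse 1 but 0.679 and 0.971 in mice 2 and 3. *Nos1*-only cells had 0.635, 1.11 and 1.67, and cells with *Nos1* and *Etv1* 1.53, 0.896 and 1.25. The *Bnc2*-only levels therefore did not overlap those of *Nos1*-only cells or of cells with both, and 1 value of *Etv1*-only cells lay among them. How many of all genes had such ranges was not counted. With 3 mice limma, described below, called neither difference, where 0.0854% and 1.06% of all genes were called. The mean was 2.70 ± 1.13 in cells with *Bnc2* and *Etv1*, 1.66 ± 1.51 with *Nos1* and *Bnc2*, 2.11 ± 0.541 with all 3 genes and 1.37 ± 0.454 with none.

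Cells with *Nos1* and *Etv1* carried *Slc5a7* largely without *Chat*. Of these 778 cells, 364 (46.8%) had *Slc5a7* and 30 had *Chat*, and summed UMIs came to 770 of *Slc5a7* and 33 of *Chat*. The ratio of *Slc5a7* to *Chat* UMIs was 23.3 there (25.3, 31.2 and 16.9 in the 3 mice), 5.50 in *Nos1*-only cells (3, 7.17 and 4.82), 5.79 in *Etv1*-only cells (24.5, 4.5 and 5.2) and 2.67 in *Bnc2*-only cells. In mice 2 and 3 the *Bnc2*-only ratio was 2.56 and 2.55; in mouse 1 it was 15 on 2 UMIs of *Chat*. The *Etv1*-only ratio of mouse 1, also on 2 UMIs of *Chat*, lay within the range of cells with *Nos1* and *Etv1*, so the contrast with *Etv1*-only cells rested on mice 2 and 3. *Slc18a3* gave 10.9 UMIs per *Chat* UMI in cells with *Nos1* and *Etv1* and 2.71 in *Bnc2*-only cells. As capture of the transcripts differs, the ratios are compared between groups and do not measure molecules. All 3 genes were detected in 68 of 265 *Bnc2*-only cells (25.7%), against 3.77%, 5.39% and 2.19% of *Nos1*-only, *Etv1*-only and *Nos1* and *Etv1* cells. These shares pool the mice, were not thinned and follow depth, at a median of 9140, 5963.5, 7340 and 9214.5 UMIs in that order of groups. Over all cells, all 3 genes were detected in 1.69%, 8.95% and 16.2% of the cells of mice 1, 2 and 3.

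**Figure D2:**
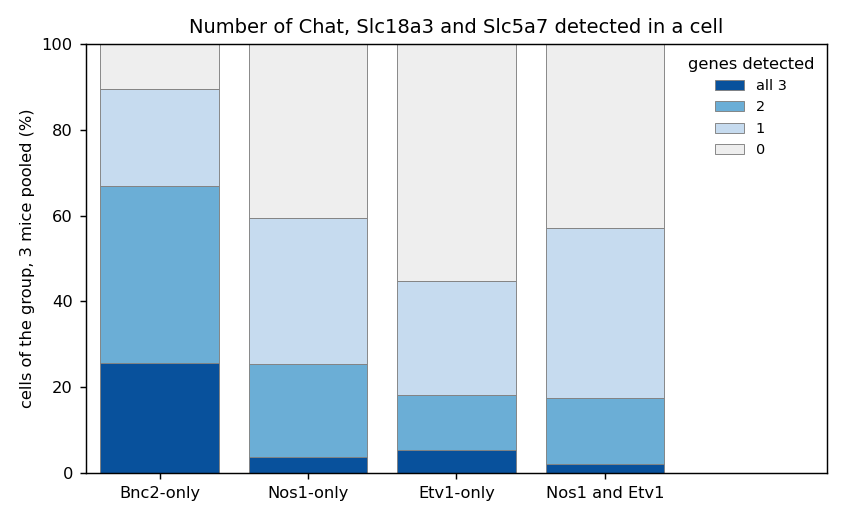
Stacked bars of the percent of cells in each group (3 mice pooled) in which all 3, 2, 1 or 0 of *Chat*, *Slc18a3* and *Slc5a7* were detected. At least 1 was detected in 89.4% of *Bnc2*-only, 59.4% of *Nos1*-only, 44.8% of *Etv1*-only and 57.2% of *Nos1* and *Etv1* cells. Cells were not thinned to equal depth.

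The breakdown gene *Ache* did not separate the groups. Its level ran from 0.472 to 1.14 UMIs per 10000 in *Bnc2*-only cells, 0.411 to 1.29 in *Nos1*-only cells, 0.473 to 1.38 in *Etv1*-only cells and 0.841 to 0.986 in cells with both, so all 4 ranges overlapped.

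Among receptor subunits, *Chrna7* was at 0.0786, 0.655 and 0.572 UMIs per 10000 in *Bnc2*-only cells. In *Etv1*-only cells it was 0, 0.199 and 0.187, in *Nos1*-only cells 0, 0.463 and 0.315, and in cells with *Nos1* and *Etv1* 0.121, 0.240 and 0.217. Within mice 2 and 3 the *Bnc2*-only level was the highest of the 4 groups, whereas mouse 1 held 1 UMI in *Bnc2*-only cells and 0 in 2 groups, where up to 0.635 and 0.154 would be allowed by 3 counts in *Nos1*-only and *Etv1*-only cells. *Chrna3* was at 0.786, 1.56 and 1.42 in *Bnc2*-only cells, 0.635, 1.36 and 1.79 in *Nos1*-only cells, 0.973, 1.01 and 0.871 in *Etv1*-only cells and 1.17, 1.61 and 1.70 in cells with both. In mice 2 and 3 the *Etv1*-only level of this ganglionic α subunit was the lowest of the 4 groups, and in mouse 1 it was not. The ratio of *Chrna3* to *Chrnb4* UMIs over the pooled mice was 2.29, 2.35, 2.15 and 2.33 in *Bnc2*-only, *Nos1*-only, *Etv1*-only and *Nos1* and *Etv1* cells. *Chrnb2* (0 to 0.157 UMIs per 10000) overlapped between all 4 groups. *Chrna5* was at 0.0786, 0.131 and 0.0660 in *Bnc2*-only cells, on 1, 18 and 6 UMIs, and at 0.221, 0.172 and 0.165 in cells with *Nos1* and *Etv1*. These ranges did not overlap, but the limma difference described below was within its error (-0.59 ± 0.419 on the log2 scale, adjusted p = 0.817, where 1.06% of genes were called), and *Nos1*-only and *Etv1*-only values lay between or across both.

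**Figure D3:**
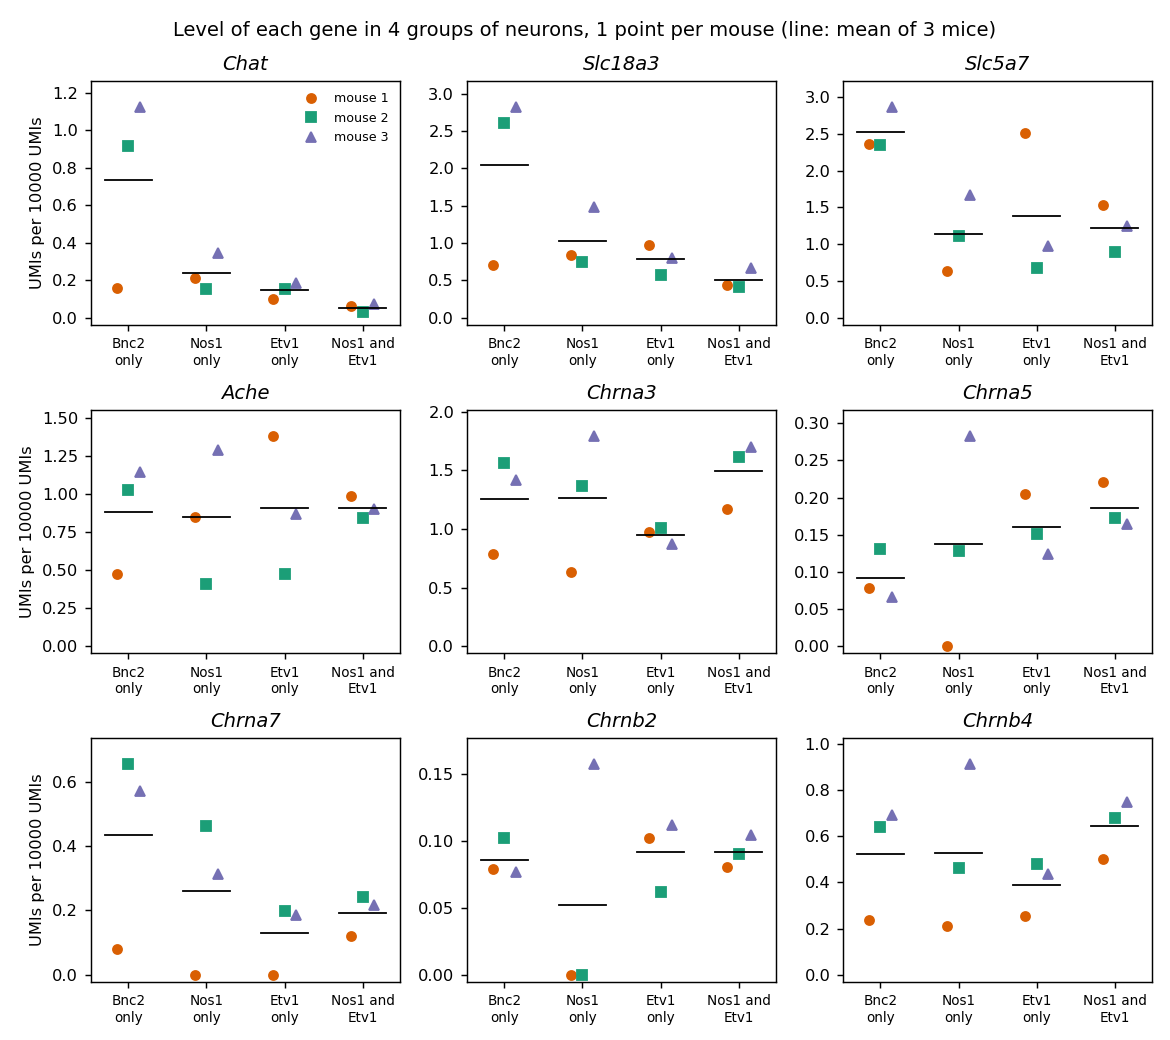
Level of each of the 9 genes (vertical axis, summed UMIs per 10000 UMIs, own scale per panel) in 4 groups of neurons, with 1 symbol per mouse and a line at the mean of 3 mice. *Chat*, *Slc18a3* and *Chrna7* are highest in the *Bnc2*-only cells of mice 2 and 3, while mouse 1 lies low in that group.

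The groups were tested with limma on log2(UMIs per 10000 + 0.1) of the 9 sums, with the mouse as a block and Benjamini-Hochberg adjustment over 11716 genes. With all 3 mice, all 9 genes passed the filter of 20 UMIs over the sums, and 0 of the 9 passed an adjusted p of 0.05 in any comparison. Few genes did in all: 10 (0.0854%) between *Bnc2*-only and *Nos1*-only cells, 55 (0.469%) between *Bnc2*-only and *Etv1*-only cells and 2 (0.0171%) between *Etv1*-only and *Nos1*-only cells, and the 2 grouping genes are among the called in each. At an unadjusted p under 0.05, 2, 4 and 0 of the 9 genes were counted, beside 1334, 1071 and 683 of all genes. Against *Nos1*-only cells the *Bnc2*-only difference was 1.06 ± 0.443 (log2, SE) for *Chat* (adjusted p = 0.408) and 1.17 ± 0.405 for *Slc5a7* (adjusted p = 0.320). Against *Etv1*-only cells it was 1.49 ± 0.443 for *Chat* (adjusted p = 0.238), 1.10 ± 0.393 for *Slc18a3* (adjusted p = 0.379), 1.01 ± 0.405 for *Slc5a7* (adjusted p = 0.459) and 1.13 ± 0.349 for *Chrna7* (adjusted p = 0.259). The median difference of the 9 genes was 0.44, 0.32 and -0.23 in the 3 comparisons, beside 0.09, 0.00 and 0.07 for all genes. With precision weights from voom, limma called 0 of the 9 against *Nos1*-only cells (35 genes, 0.299%), 3 of the 9 against *Etv1*-only cells (271 genes, 2.31%) and 0 between *Etv1*-only and *Nos1*-only cells (3 genes, 0.0256%), with 3, 4 and 0 of the 9 at an unadjusted p under 0.05 beside 886, 1335 and 382 of all genes. The 3 were *Chat* (2.40 ± 0.579, adjusted p = 0.0272), *Slc18a3* (1.75 ± 0.423, adjusted p = 0.0275) and *Slc5a7* (1.40 ± 0.336, adjusted p = 0.026).

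The calls also depended on mouse 1. Without it, on 11462 genes and 2 mice, 3 of the 9 were called higher in *Bnc2*-only than in *Nos1*-only cells, beside 535 of all genes (4.67%), and 4 higher than in *Etv1*-only cells, beside 1041 (9.08%). Against *Nos1*-only cells these were *Chat* (1.73 ± 0.248, adjusted p = 0.00198), *Slc18a3* (1.28 ± 0.195, adjusted p = 0.00293) and *Slc5a7* (0.88 ± 0.161, adjusted p = 0.00734). Against *Etv1*-only cells they were *Chat* (2.06 ± 0.248, adjusted p = 0.000208), *Slc18a3* (1.85 ± 0.195, adjusted p = 7.2e-05), *Slc5a7* (1.56 ± 0.161, adjusted p = 6.57e-05) and *Chrna7* (1.28 ± 0.236, adjusted p = 0.00372). *Chrna3* missed the threshold there (0.61 ± 0.181, adjusted p = 0.0509). Between *Etv1*-only and *Nos1*-only cells, 38 genes (0.332%) and 0 of the 9 were called without mouse 1, and 4 of the 9 had an unadjusted p under 0.05, as did 1269 of all genes (11.1%). Without mouse 2, 0 of the 9 were called in any of the 3 comparisons, beside 12, 20 and 3 of all genes (0.119%, 0.199% and 0.0298%), and at an unadjusted p under 0.05 there were 1, 0 and 0 of the 9 beside 855, 466 and 613 genes. Without mouse 3 it was again 0 of the 9, beside 11, 17 and 2 genes (0.101%, 0.156% and 0.0183%), and 1, 0 and 0 of the 9 at an unadjusted p under 0.05 beside 989, 491 and 525 genes. Mouse 1 was shallow and had the fewest cells in every group, and the part of this in the lost calls was not tested. With cells of at most 4 neuronal markers left out, which removed all muscle marker cells, the *Chat* difference between *Bnc2*-only and *Etv1*-only cells was 1.42 with 3 mice (limma, adjusted p = 0.472) and 2.0 without mouse 1 (adjusted p = 0.000163), when the same 3 and 4 of the 9 were called as in all cells of mice 2 and 3.

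Glial marker-high cells, with at least 4 of 10 glial markers, made up 72.1% of *Etv1*-only and 30.9% of *Bnc2*-only cells. With them left out and all 3 mice, 0 of the 9 were called against *Etv1*-only cells (8 genes, 0.0801%) or *Nos1*-only cells (3 genes, 0.03%), and 0 and 2 of the 9 had an unadjusted p under 0.05, beside 451 and 795 of all genes. The median difference of the 9 from *Etv1*-only cells was then -0.21, with 4 of the 9 higher in *Bnc2*-only cells, and *Chat* gave 0.94 ± 0.599. With mouse 1 left out too, 1 of the 9, *Slc18a3*, was called against *Etv1*-only cells, beside 77 of all genes or 0.791% (1.57 ± 0.308, adjusted p = 0.0469), while *Chat* (1.54, adjusted p = 0.069), *Slc5a7* (0.97, adjusted p = 0.209) and *Chrna7* (0.58, adjusted p = 0.738) did not, and 0 of the 9 were called against *Nos1*-only cells (9 genes, 0.0925%), with 3 of the 9 and 981 genes at an unadjusted p under 0.05. Their part in the result was not tested.

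**Figure D4:**
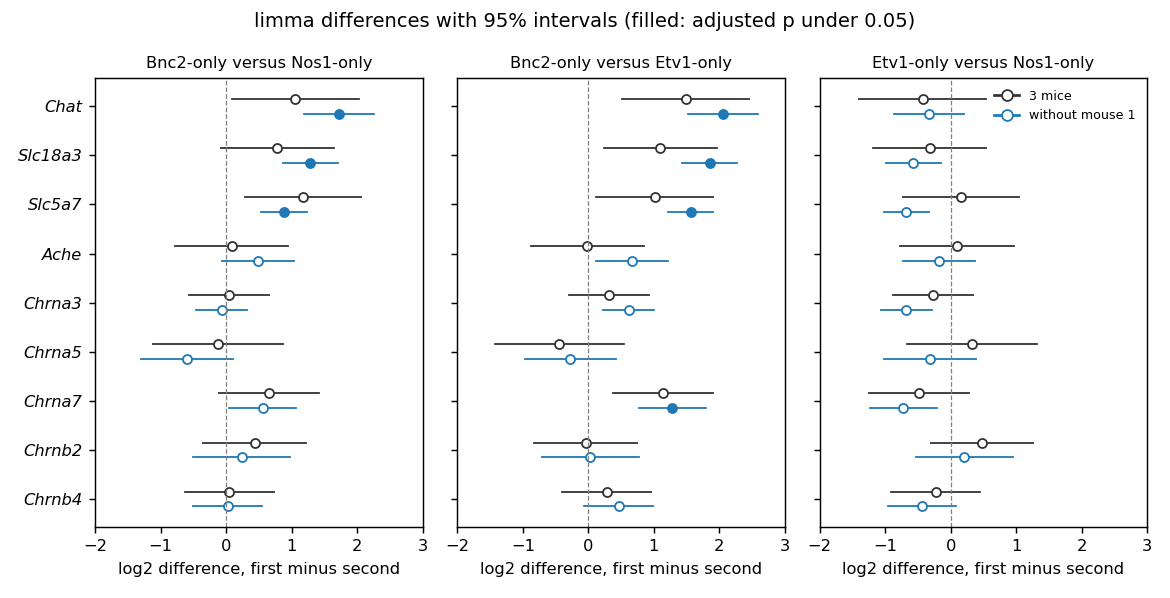
Difference of the 9 genes between groups of neurons (horizontal axis, log2, first group minus second) with 95% intervals from limma, in black for 3 mice and in blue without mouse 1, filled where the adjusted p is under 0.05. The filled points are *Chat*, *Slc18a3* and *Slc5a7* in both comparisons of *Bnc2*-only cells and *Chrna7* in the comparison with *Etv1*-only cells, all without mouse 1.

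A fit with the cells of *Nos1* and *Etv1* as a further group tested 13070 genes. *Bnc2*-only cells had more *Chat* than those cells (2.16 ± 0.429 on the log2 scale, adjusted p = 0.0322), 1 of the 9 genes called beside 138 of all genes (1.06%). *Slc18a3* was just outside the threshold (1.64 ± 0.361, adjusted p = 0.0504), and *Slc5a7* gave 1.01 ± 0.371 (adjusted p = 0.356). The *Chat* call rested on each of mice 2 and 3, since it was lost without mouse 2 (1.75, adjusted p = 0.61) and without mouse 3 (1.83, adjusted p = 0.563). Without mouse 1, on 12805 genes, *Chat* (2.90 ± 0.232, adjusted p = 3.12e-05), *Slc18a3* (2.17 ± 0.182, adjusted p = 4.11e-05), *Slc5a7* (1.22 ± 0.135, adjusted p = 0.000243) and *Chrna7* (1.12 ± 0.203, adjusted p = 0.00618) were called, beside 822 genes (6.42%). It was also lost without the glial marker-high cells (2.46, adjusted p = 0.116), when *Slc18a3* was the 1 called of the 9 (2.35, adjusted p = 0.0414, beside 27 of all genes, 0.234%). Between *Etv1*-only cells and cells with both, 0 of the 9 were called with 3 mice (32 genes, 0.245%; 1025 genes and 2 of the 9 at an unadjusted p under 0.05), and without mouse 1 *Etv1*-only cells had less *Chrna3* (-0.76 ± 0.157, adjusted p = 0.0204; 601 genes, 4.69%). For *Nos1*-only cells 0 of the 9 were called with 3 mice (3 genes, 0.023%; 1356 genes and 2 of the 9 at an unadjusted p under 0.05), and without mouse 1 both *Chat* (1.17 ± 0.232, adjusted p = 0.0268) and *Slc18a3* (0.89 ± 0.182, adjusted p = 0.0322) were higher in them than in cells with both (253 genes, 1.98%). Weights from voom called 3, 0 and 0 of the 9 in these 3 comparisons with 3 mice, beside 424, 199 and 50 of all genes (3.24%, 1.52% and 0.383%), with 4, 2 and 2 of the 9 at an unadjusted p under 0.05 beside 1453, 1522 and 1149 genes.

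Co-detection was counted for the 36 pairs of the 9 genes. The number of cells with both genes was set beside the number that independence gives within each mouse and 5 bins of depth, since deep cells hold more of every gene. The ratio was above 1 for 32 pairs and ran from 0.792 to 1.63. The 95% exact Poisson interval, which covers counting error only, lay above 1 for 17 pairs and below 1 for 0. At 3000 UMIs per cell it lay above 1 for 15 pairs and below 1 for 0, and the ratio itself was above 1 for 34 pairs. With 2 UMIs asked of both genes 29 ratios were above 1. Without the smooth muscle marker-high cells 30 were, and without the glial marker-high cells 28. Pairs of other genes were not counted, so these numbers have no background beside them and are not read as particular to the 9 genes.

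The highest ratio was that of *Chat* and *Slc18a3*, the genes of the shared locus: 281 cells held both, against 172.6 expected (ratio 1.63, 1.44 to 1.83). In mice 2 and 3, *Slc18a3* was detected in 75.1% and 76.6% of *Chat*-positive cells and 31.9% and 40.6% of *Chat*-negative cells; in mouse 1 the shares were 40.0% and 23.4%. *Chat* with *Slc5a7* gave 1.36 (1.20 to 1.54) and *Slc18a3* with *Slc5a7* 1.30 (1.19 to 1.42). *Ache* was found with *Slc5a7* in 569 cells (1.34, 1.23 to 1.45) and with *Slc18a3* in 482 (1.28, 1.17 to 1.40). When independence was taken within mouse and cell group instead, *Chat* with *Slc18a3* fell to 1.25, so that a part of that ratio went with the groups.

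*Chrna7* had a ratio with its interval above 1 with *Chat* alone. *Chat* and *Chrna7* shared 131 cells (1.51, 1.26 to 1.79), with none in mouse 1, where 0.581 were expected. *Chrna7* gave 1.04 (0.901 to 1.20) with *Slc18a3*, 0.947 (0.818 to 1.09) with *Slc5a7* and 0.877 (0.747 to 1.02) with *Ache*. Within mouse and cell group its ratio with *Chat* was 1.16.

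Among *Chrna3*, *Chrna5*, *Chrnb2* and *Chrnb4*, only the pairs with *Chrna3* had intervals above 1. *Chrna3* and *Chrnb4* shared 526 cells (1.15, 1.05 to 1.25), and *Chrnb4* was found in 22.1%, 46.7% and 50.7% of *Chrna3*-positive cells and 9.60%, 24.1% and 22.0% of *Chrna3*-negative cells of mice 1, 2 and 3. *Chrna3* also gave a ratio above 1 with *Chrna5* (176 cells, 1.19, 1.02 to 1.38) and *Chrnb2* (121 cells, 1.27, 1.05 to 1.51). The intervals included 1 for *Chrna5* with *Chrnb4* (1.15, 0.947 to 1.39) and *Chrnb2* with *Chrnb4* (1.09, 0.846 to 1.38). That of *Chrna5* with *Chrnb2* (1.10, 0.692 to 1.67) did too. Of the 235 cells with *Chrna5*, 59 had no *Chrna3* detected, and 92 cells had *Chrna3*, *Chrna5* and *Chrnb4*. *Chrna7* with *Chrnb2*, on 27 cells, had the lowest ratio (0.792, 0.522 to 1.15), and its interval included 1.

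**Figure D5:**
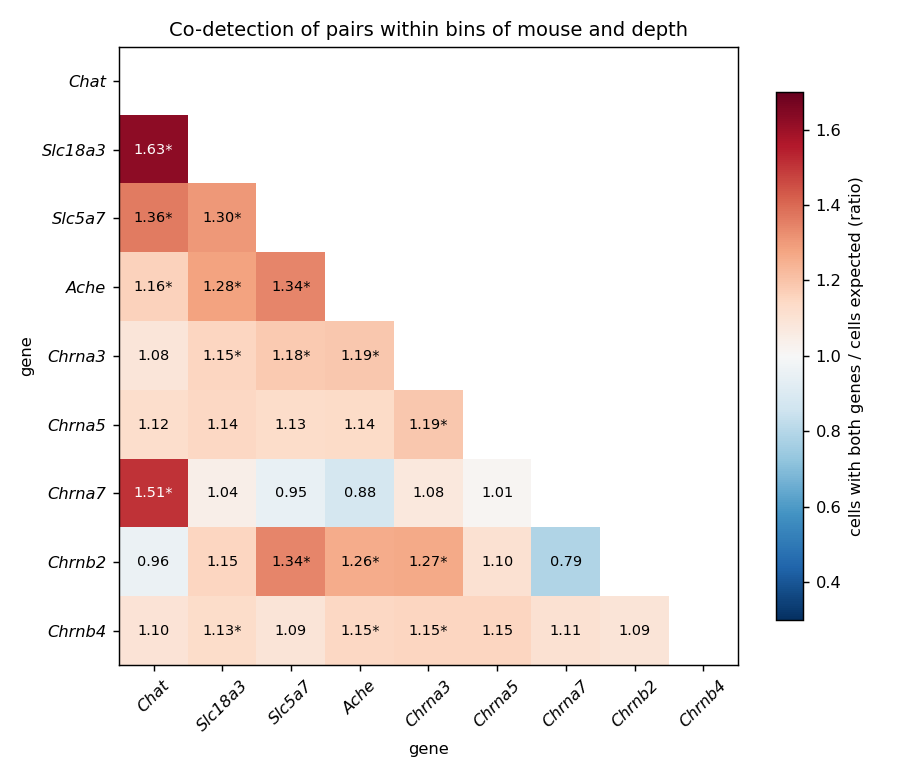
Ratio of the number of cells with both genes to the number expected within bins of mouse and depth, for the 36 pairs of the 9 genes (colour and printed value), with a star where the 95% Poisson interval lies above 1. Among the genes of synthesis, transport and breakdown all 6 pairs carry a star, and *Chrna7* carries one only with *Chat*.

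Other genes of acetylcholine signalling were read from a list of 32. Of the other nicotinic subunits, *Chrna9*, *Chrna10*, *Chrnd* and *Chrne* had 0 UMIs in 2060 cells, which by a floor of 3 counts allows a UMI in up to 0.146% of cells and sets no limit on cells that express the gene, and *Chrna4*, the most often detected, was in 79 cells (3.83%). The muscarinic receptor gene *Chrm2* was in 616 cells, 29 of them among the 51 muscle marker cells, and *Chrm5* had 0 UMIs. *Ric3*, a chaperone of nicotinic receptors, was in 567 cells (27.5%). *Ly6h*, a toxin-like modulator of the receptors, was in 1385 cells (67.2%). Of the list, 17 genes were tested between the 3 groups, and 0, 1 and 0 were called with 3 mice by limma (of all genes 0.0854%, 0.469% and 0.0171%), while 2, 3 and 3 had an unadjusted p under 0.05 beside 1334, 1071 and 683 of all genes. The called gene was *Chrm2*, higher in *Bnc2*-only than in *Etv1*-only cells (1.94 ± 0.278, adjusted p = 0.014). Its pooled levels were 0.963 and 0.232 UMIs per 10000, and it was also called without mouse 1 (1.69 ± 0.237, adjusted p = 0.000584), the mouse that held most muscle marker cells. The call was lost without mouse 2 (2.14 ± 0.447, adjusted p = 0.05004), without mouse 3 (1.99 ± 0.426, adjusted p = 0.0551), without the glial marker-high cells (1.60 ± 0.548, adjusted p = 0.713) and without the cells of at most 4 neuronal markers (1.10 ± 0.430, adjusted p = 0.645; 16 of all genes called, 0.139%). In each of these limma fits 0 of the 15 to 17 tested genes of the list were called and 2 had an unadjusted p under 0.05, beside 466, 491, 451 and 772 of all genes. Without mouse 1 the anchors of acetylcholinesterase *Prima1* (1.22 ± 0.281, adjusted p = 0.0152) and *Colq* (1.22 ± 0.297, adjusted p = 0.0203) and *Ly6h* (1.84 ± 0.188, adjusted p = 6.37e-05) were called in the same comparison, making 4 of 17. In the comparison with *Nos1*-only cells without mouse 1, *Chrm2*, *Colq* and *Ly6h* were called higher and *Bche*, the gene of butyrylcholinesterase, lower in *Bnc2*-only cells (-1.25 ± 0.325, adjusted p = 0.0452). *Bche* was in 23 of the 51 muscle marker cells. Neither group held any of those cells in mice 2 and 3. Cells with at least 5 of the 10 smooth muscle markers were 104 of 148 *Bnc2*-only and 36 of 53 *Nos1*-only cells in mouse 2. In mouse 3 they were 52 of 91 and 21 of 41. A part of muscle RNA in this difference was not tested. In the fit of 4 groups with 3 mice, where 20 genes of the list were tested, 0, 1 and 0 were called, and the called gene was *Ly6h*, lower in *Etv1*-only cells than in cells with both (-1.56 ± 0.279, adjusted p = 0.0365).

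Likeness was read over the 9 sums of 3 mice and 3 groups, on the log2 scale after the mean of each mouse was subtracted. The genes most like *Chat* were *9330182L06Rik* (Pearson's r = 0.996), *Grik1* (0.992), *Tvp23b* (0.989), *Srebf2* (0.988) and *Mindy2* (0.981), among 10661 genes in at least 5% of cells. *Slc18a3* reached 0.940, *Chrna7* 0.752 and *Slc5a7* 0.571. For *Chrna3* the 5 were *Mast1* (0.977), *Plekha7* (0.962), *Dcaf15* (0.959), *Rundc3a* (0.959) and *Dap3* (0.952), and *Chrnb4* reached 0.896. The 9 points share 3 libraries and the subtracted means, and some rest on few UMIs. The 5 genes were picked as the highest of 10661, which by itself favours a high r.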

How the data were processed

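The authors aligned and counted the reads of the 3 libraries with Cell Ranger to mm10 per the labels, filtered cells (1500 to 5000 genes, under 12.5% mitochondrial reads), merged the mice and removed non-neuronal cells and some genes. Each deposited value is the natural log of 1 plus a gene's UMIs, scaled so that every cell totals 10000. From these, whole UMIs were recovered (100% of 6435281 values above 0 within 1e-06). Genes absent from the table held 1.90% to 34.0% of a cell's UMIs and stay in its total. A cell was positive at 1 UMI. Because cells are not replicates, UMIs were summed per mouse and cell group and tested with limma 3.58.1 in R 4.3.3 (trend, mouse as block, pseudocount 0.1, genes with at least 20 UMIs over the sums, Benjamini-Hochberg). The same numbers of a mouse mark the same animal in every group, so the block pairs true samples. A fold change on this scale understates the change of low genes. Scrublet (scanpy 1.11.5, 6% doublets assumed) marked 12 cells, which stayed in the main values. Cells that pair a neuron with a type already removed cannot be found this way. Thinning drew 3000 UMIs per cell with a fixed seed. Shares have 95% exact binomial and counts exact Poisson intervals, both for counting error only. Gene positions come from GENCODE M21 (GRCm38) and promoters from RefSeq. The limma fit of 3 groups was tested on simulated sums. These had no differences between mice, so that test does not cover the effect of mouse 1. The genes, groups and gene lists were chosen with earlier results of these data known. The named genes are the 9, the grouping genes, a list of 32 further genes of acetylcholine signalling and the 5 genes most like *Chat* and *Chrna3*. The muscle marker rule and the group with *Nos1* and *Etv1* were chosen after the data were seen. Alternatives were the pseudocount, the filter on low genes, 2 UMIs of the grouping gene, looser groups, called other genes free, thinning, marker-high cells or doublets left out, voom weights, the mean of the deposited values, no block and each mouse left out. The looser groups were *Nos1* cells without *Bnc2* against *Bnc2* cells without *Etv1*, which could hold *Nos1*. The same *Bnc2* cells were also set against *Etv1* cells without *Bnc2*, with *Nos1* free in both. Wild-type cells used in the study were not analysed here.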

Additional observations from a re-analysis of the deposited data

How the results depend on the processing

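With 3 mice 0 of the 9 genes were called in the 3 comparisons except after thinning, with voom weights and on the mean of deposited values (limma). A sign change was counted as a reversal where a call or a difference of at least 1 SE was involved; of 654 alternative differences of the 9 genes, 90 had the other sign and 12 were reversals, and 31 passed the threshold where the main value did not. Between *Bnc2*-only and *Nos1*-only cells, genes called numbered 5 (pseudocount 0.02), 27 (0.5), 3 (no filter), 5 (2 UMIs of the grouping gene), 253 (thinned), 3 (glial marker-high cells left out), 21 (other grouping genes free), 35 (voom), 80 (mean of deposited values), 2 (no mouse block) and 459 (neuronal marker-low cells and mouse 1 left out), and 11 to 535 with 1 mouse left out; of the 9, 1 was called thinned (*Chat*), 3 without neuronal marker-low cells and mouse 1, and 0 to 3 with 1 mouse left out. Against *Etv1*-only cells the counts, in that order of settings where they moved, were 23, 17, 10, 83, 34 (smooth muscle marker-high cells left out), 8, 30, 271, 213, 8, 16 (neuronal marker-low cells left out) and 887 (62 at pseudocount 0.5), and 17 to 1041 with 1 mouse left out; of the 9, 3 were called by voom, 2 on the mean of deposited values, 4 and 1 without mouse 1 and neuronal marker-low or glial marker-high cells, and 0 to 4 with 1 mouse left out. Between *Etv1*-only and *Nos1*-only cells 39 and 5 genes were called in the same 2 settings and 2 to 38 with 1 mouse left out. In the fit of 4 groups, *Bnc2*-only cells against cells with both gave 27 genes (glial), 424 (voom) and 23 to 822 (1 mouse left out), with 2 (neuronal), 3 (voom) and 0 to 4 of the 9; *Etv1*-only cells gave 7 (neuronal), 3 (glial), 199 (voom) and 1 to 601, with 0 to 1 of the 9; *Nos1*-only cells gave 13 (glial), 50 (voom) and 1 to 253, with 0 to 2 of the 9.

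The reversals were *Slc18a3* at 2 UMIs (-0.69) and *Chrnb2* with other genes free (-0.092) for *Bnc2*-only minus *Nos1*-only; *Slc5a7* at 2 UMIs (-0.25) and *Chrna3* without glial marker-high cells (-0.43) or with other genes free (-0.19) for *Bnc2*-only minus *Etv1*-only; *Chrna7* at 2 UMIs (0.52), without smooth muscle (0.26) or glial (0.043, and 0.064 also without mouse 1) marker-high cells for *Etv1*-only minus *Nos1*-only; and, against cells with both, *Chrna3* in *Etv1*-only cells without glial marker-high cells (0.14) and *Chrna5* in *Nos1*-only cells with 1 mouse left out (-0.97 to 0.14, the latter without mouse 1) or by voom (0.024). The cause was not tested. No block other than the mouse was possible, and without the replicate block 0 of the 9 were called. Shares of cells depend on depth: the requirement of 2 UMIs moved all 9 and thinning 7, and each moved 19 of the 36 co-detection ratios. With 12 to 53 *Nos1*-only cells per mouse, differences of the genes with few UMIs could not be resolved.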
